A study of Homo sapiens with 4 samples.

Results

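The NRF2-KEAP1 and thioredoxin genes described here are NFE2L2, NFE2L1, KEAP1, TXN, TXNRD1, PRDX1, SRXN1, NQO1 and OSGIN1, taken by name from the deposited gene table. Each of the 9 names matched 1 row of the 60675 in the table. The samples are 4 RNA libraries of HT1080 cells labelled KDAC8 knockout, KDAC8 being the lysine deacetylase encoded by HDAC8. HT1080 is a human fibrosarcoma line with an activated NRAS allele, grown here in MEM with fetal bovine serum, and total RNA was depleted of ribosomal RNA before sequencing. No unedited HT1080 library was analysed here, so the values are levels within the knockout libraries and differences between those libraries, and not effects of the knockout. The labels do not say whether the line is a single clone or whether the 4 replicates were separate cultures, so the p-values below reflect how far these 4 libraries spread, and that spread may be technical.

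NFE2L2 encodes NRF2, a transcription factor of the cap'n'collar family that binds antioxidant response elements together with small MAF proteins. KEAP1 is the cysteine-rich sensor that ties NRF2 to a CUL3 ubiquitin ligase, and oxidants or electrophiles that modify KEAP1 allow NRF2 to accumulate. Much of this control acts on the protein, so an mRNA level does not show how active NRF2 is. NFE2L1 encodes NRF1, a related factor held in the endoplasmic reticulum that is known for driving proteasome genes. In the thioredoxin system, TXNRD1 uses NADPH to reduce TXN, TXN reduces the peroxidase PRDX1 among other proteins, and SRXN1 repairs PRDX1 that has been over-oxidised. NQO1, a quinone reductase, and OSGIN1, an oxidative stress-induced growth inhibitor, are commonly used NRF2 target genes.

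Sites known for the work of some of these proteins are short. Their coding sequences are printed, with those of 2 motifs that NRF2 and NRF1 share. They were read from GENCODE release 29 transcripts (GRCh38) and run 5′ to 3′ on the coding strand, with the codons of the site in capitals. The thioredoxin site encodes the CGPC motif, codons 32 to 35 of 105, whose paired cysteines carry out the disulfide exchange (chr9:110251373-110251402, reverse strand). The reductase site encodes GCUG, the last codons 496 to 499, in which the TGA codon is annotated as selenocysteine and not as a stop (chr12:104348398-104348427, forward strand). The peroxiredoxin site holds the cysteine that reacts with peroxide, within codons 50 to 55 of 199 (chr1:45515743-45515772, reverse strand). The sulfiredoxin site, codons 97 to 101 of 137, holds its catalytic cysteine (chr20:648819-648845, reverse strand).
TXN: gccacgtggTGTGGGCCTTGCaaaatgatc
TXNRD1: ctccaggctGGCTGCTGAGGTtaagcccca
PRDX1: ttcaccTTTGTGTGCCCCACGGAGatcatt
SRXN1: tcctttGGGGGCTGCCACCGCtacgcg

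KEAP1 grips NRF2 through a DLG and an ETGE motif, and NRF1 carries motifs of the same letters. In NFE2L2 the DLG motif was found at codons 29 to 31 of 605 and the ETGE motif at codons 79 to 82, each once (chr2:177234215-177234241 and chr2:177234062-177234091, reverse strand). In NFE2L1, DLG was found at 2 places and ETGE at codons 233 to 236 of 772. The DLG shown is the nearer to ETGE, at codons 184 to 186 (chr17:48056416-48056442 and chr17:48056563-48056592, forward strand). The codons of the shared letters are alike in part and differ in part between the genes. Where they differ, they encode the same amino acids, which follows from the search, since the sites were found by those letters.
NFE2L2 DLG: caagatataGATCTTGGAgtaagtcga
NFE2L1 DLG: caggatattGATCTGGGGgctgggcgt
NFE2L2 ETGE: ctagatgaaGAGACAGGTGAAtttctccca
NFE2L1 ETGE: gtggatggaGAGACTGGGGAGagcttccct

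Antioxidant response elements were looked for as TGACNNNGC on both strands in RefSeq promoter windows (GRCh38.p14) that run from 250 bases before to 50 after each annotated start. Of the 9 genes, 8 had a window, and PRDX1, which had no window, was not searched. TXNRD1 and KEAP1, 2 of the 8 (25%), held a match. The share of all 27305 genes with a match was 16.1%, so the motif is frequent and a match is a description only. Elements farther upstream lie outside these windows. The TXNRD1 matches begin at positions -99, -8 and -102 relative to the starts of their windows' transcripts, the last belonging to the downstream start (chr12:104215670-104215698 forward, chr12:104215761-104215789 reverse and chr12:104286920-104286948 reverse). The KEAP1 matches, both at its downstream start, begin at -54 and -31 (chr19:10502807-10502835 reverse and chr19:10502784-10502812 forward). The motif is in capitals in each line.
TXNRD1 at -99: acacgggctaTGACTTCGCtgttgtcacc
TXNRD1 at -8: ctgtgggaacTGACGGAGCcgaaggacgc
TXNRD1 at -102: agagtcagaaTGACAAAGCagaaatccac
KEAP1 at -54: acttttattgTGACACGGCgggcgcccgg
KEAP1 at -31: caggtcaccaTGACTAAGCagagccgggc

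The libraries held 39454210 to 45828807 expected counts each, the deposited estimate of reads per gene. Levels are CPM, the expected count per 1000000 counts of the library's effective size, with errors as SD over the 4 libraries (n = 4). HDAC8, the targeted gene, had 1.98, 2.11, 2.10 and 2.53 CPM in replicates 1 to 4, and since the edited part of the gene is not given, its total does not test the label. Of the mesenchymal markers, VIM stood at 4701 ± 283 CPM and all 6 were above 1 CPM, while the epithelial EPCAM, CDH1 and KRT5 were at 0 in every library, which allows up to 0.0662 to 0.0742 CPM (3 counts, counting error only). Of the 3 haematopoietic and 3 endothelial markers, 0 reached 1 CPM in all libraries.

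Every library held each of the 9 genes at 1 CPM or above, the limit used for calling a gene detected, and 12984 of the 60675 rows met it. Levels between genes were compared per kilobase of annotated exon. By that measure TXN was highest at 218 ± 18.0 CPM per kilobase, followed by PRDX1 at 166 ± 6.89 and TXNRD1 at 163 ± 10.5 CPM per kilobase. NFE2L1 (53.1 ± 3.18) and NQO1 (44.2 ± 3.97) formed the middle, then came SRXN1 (27.6 ± 1.37), NFE2L2 (16.4 ± 0.871) and KEAP1 (14.9 ± 1.78 CPM per kilobase). OSGIN1 was lowest at 1.67 ± 0.110 CPM per kilobase. The median of the 9 was 44.2 CPM per kilobase, beside 5.56 over the 12930 detected genes with an annotated length. TXN, PRDX1 and TXNRD1 each exceeded more than 98% of those genes, at 98.96%, 98.55% and 98.53%, whereas OSGIN1 exceeded 21.3% of them.

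**Figure D1:**
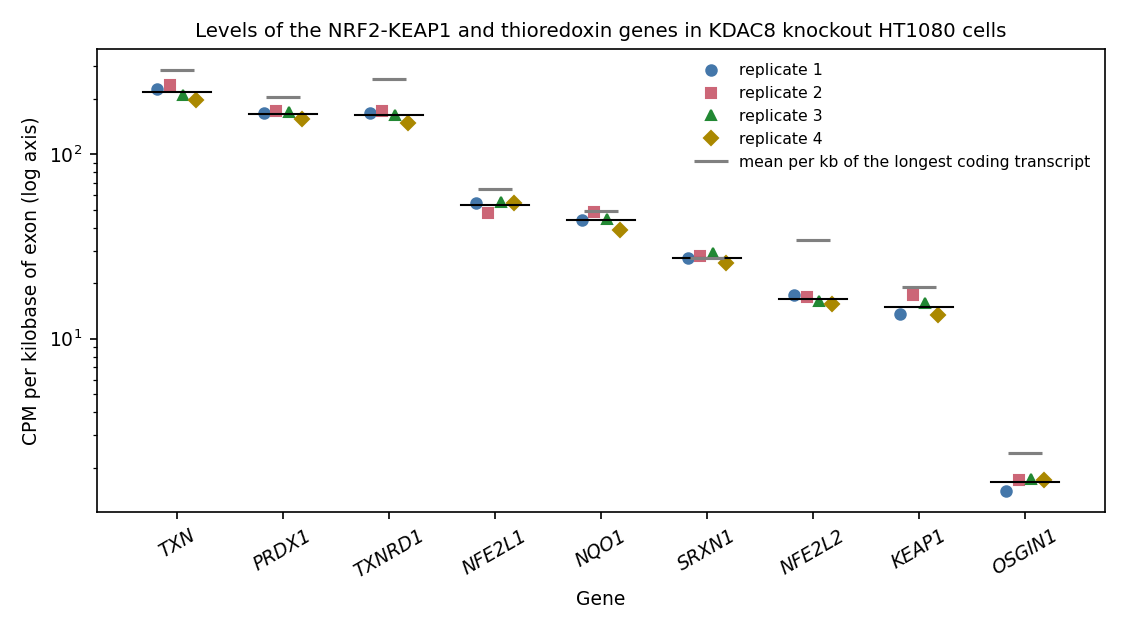
Levels of the 9 genes in the 4 KDAC8 knockout libraries, as CPM per kilobase of annotated exon on a log axis. Symbols are replicates, black lines their means, and grey lines the mean per kilobase of the longest coding transcript. TXN, PRDX1 and TXNRD1 sit above 140 CPM per kilobase and OSGIN1 below 2, and the grey lines put TXNRD1 above PRDX1 and NFE2L2 above SRXN1.

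Neighbours in this order did not all lie apart by more than their spread. PRDX1 and TXNRD1 were level, with a log2 ratio of 0.02 ± 0.04 and PRDX1 the higher in 2 of 4 libraries (exact sign-flip permutation p = 0.5). NFE2L1 exceeded NQO1 in 3 of 4 libraries (log2 ratio 0.27 ± 0.21, exact p = 0.25), and NFE2L2 exceeded KEAP1 in 3 of 4 (0.14 ± 0.17, exact p = 0.25). The other 5 neighbouring pairs kept their order in every library, the closest being TXN over PRDX1 at 0.39 ± 0.08. Over all 15 ratios computed, 12 had the same sign in 4 of 4 libraries. Each of those 12 had an exact two-sided p of 0.13, the smallest that 4 libraries allow, and 0.156 after Benjamini-Hochberg adjustment over the 15, so this design cannot reach 0.05. The order also rests on the length used. Per kilobase of the longest protein-coding transcript, the PRDX1 to TXNRD1 ratio was -0.32 and the SRXN1 to NFE2L2 ratio was -0.32, against 0.02 and 0.75 per kilobase of exon.

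All 9 genes are annotated as protein-coding, and their coordinates are those of GENCODE release 29 on GRCh38. NFE2L2 (ENSG00000116044, chr2:177227595-177392697, reverse strand), the gene of NRF2, had 103, 101, 95.6 and 91.8 CPM in replicates 1 to 4. These values lie close together, with replicate 4 the lowest. NFE2L1 (ENSG00000082641, chr17:48048329-48061487, forward strand), the gene of NRF1, had 317, 282, 320 and 318 CPM. Replicate 2 stood below the other 3, which were within a few CPM of each other. NRF1 mRNA was thus the more abundant of the pair in 4 of 4 libraries. Per kilobase of exon the log2 ratio of NFE2L2 to NFE2L1 was -1.70 ± 0.14, which is 3.24-fold lower, and per kilobase of the longest coding transcript it was -0.92, or 1.89-fold lower.

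KEAP1 (ENSG00000079999, chr19:10486120-10503741, reverse strand), the sensor that holds NRF2 in check, had 51.0, 64.6, 58.4 and 50.6 CPM. Replicate 2 was highest and replicates 1 and 4 were nearly equal at the low end. The NFE2L2 to KEAP1 log2 ratio per kilobase of exon was 0.35, -0.02, 0.04 and 0.19 in replicates 1 to 4, so the pair was close to parity by that length. Per kilobase of the longest coding transcript NFE2L2 was 1.81-fold higher.

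TXNRD1 (ENSG00000198431, chr12:104215779-104350305, forward strand), the cytosolic selenoenzyme that reduces thioredoxin, took the most counts of the 9 genes. It had 1123, 1159, 1101 and 995 CPM in replicates 1 to 4, a mean of 1095 ± 70.7 CPM, with replicate 4 lowest. TXN (ENSG00000136810, chr9:110243811-110256640, reverse strand), the cytosolic thioredoxin, had 259, 271, 240 and 225 CPM. It too was highest in replicate 2 and lowest in replicate 4. Per kilobase of exon TXN exceeded its reductase in 4 of 4 libraries by a log2 ratio of 0.41 ± 0.04, or 1.33-fold, and by 1.12-fold per kilobase of the longest coding transcript.

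The cytosolic genes lay far above their mitochondrial paralogs. TXN exceeded TXN2, the mitochondrial thioredoxin, 8.85-fold per kilobase of exon (log2 ratio 3.15 ± 0.13). TXNRD1 exceeded TXNRD2, the mitochondrial reductase, 36.9-fold (5.21 ± 0.15), and 21.8-fold by the longest coding transcript. Both held in 4 of 4 libraries.

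PRDX1 (ENSG00000117450, chr1:45511036-45523047, reverse strand), an abundant cytosolic peroxidase that uses thioredoxin, had 254, 261, 257 and 237 CPM. Its replicates were the closest of the 9 genes, with a highest-to-lowest ratio of 1.10. SRXN1 (ENSG00000271303, chr20:646615-653370, reverse strand), the sulfiredoxin that restores over-oxidised peroxiredoxins, had 74.1, 75.4, 78.4 and 69.5 CPM. For each SRXN1 transcript per kilobase there were 6.02 of PRDX1, and the log2 ratio, 2.59 ± 0.03, had the smallest SD of the 15. PRDX1 exceeded its cytosolic paralog PRDX2 by 6.93-fold per kilobase of exon (2.79 ± 0.06) and 4.03-fold by the longest coding transcript.

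NQO1 (ENSG00000181019, chr16:69706996-69726951, reverse strand), which reduces quinones to hydroquinones with NADPH or NADH, had 144, 159, 146 and 127 CPM. Replicates 1 and 3 were alike, with replicate 2 above and replicate 4 below them. Its paralog NQO2 was lower in every library, and NQO1 exceeded it 14.4-fold per kilobase of exon (log2 ratio 3.84 ± 0.10). Much of that fold rests on the annotated exon lengths, 11558 bases for NQO2 and 3254 for NQO1. Without division by length the mean log2 ratio of CPM was 2.01. OSGIN1 (ENSG00000140961, chr16:83948282-83966332, forward strand) was sparse by comparison, with 5.19, 5.91, 6.00 and 5.94 CPM from 210, 249, 272 and 251 counts. Replicate 1 was lowest and the other 3 were close together.

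**Figure D2:**
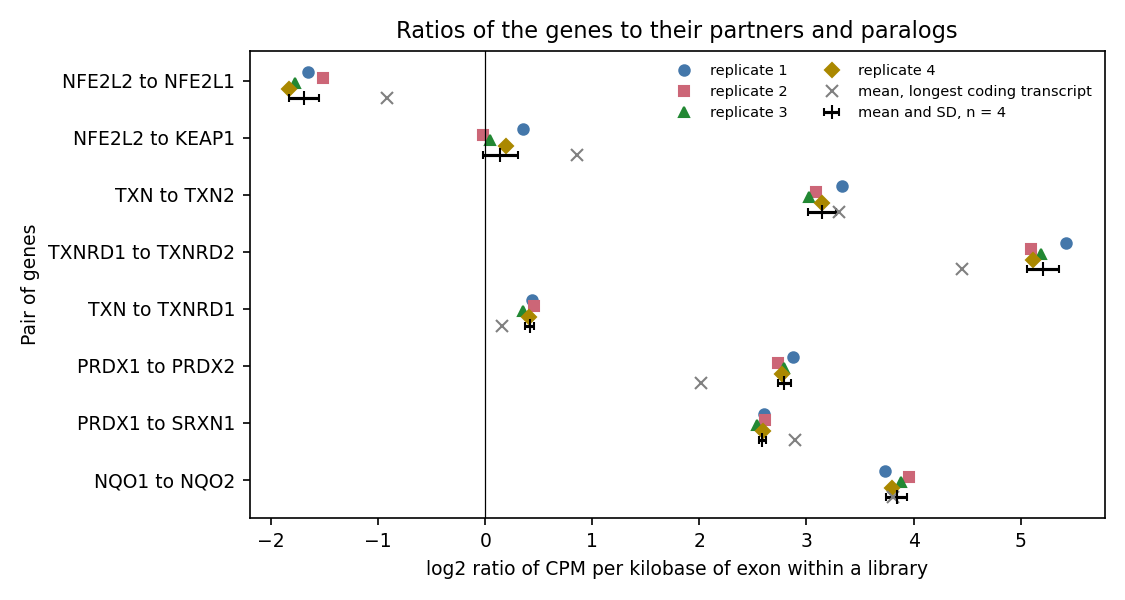
Log2 ratios of CPM per kilobase of exon within each library for 8 pairs of genes, with the mean and SD over 4 libraries in black and the mean per kilobase of the longest coding transcript as grey crosses. NFE2L2 lies below NFE2L1 and near KEAP1, while the cytosolic TXN and TXNRD1 lie 3.15 and 5.21 log2 units above their mitochondrial paralogs.

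Few counts were allotted to the rows named as pseudogenes of these genes, which does not show where ambiguous reads came from. The TXN pseudogene rows, 7 in number, held 9 counts in all, and the PRDX1 pseudogene row held 3, which is 0.0213% and 0.00699% of the parent genes. The expected counts of NFE2L2 were not whole in 4 of 4 libraries, those of PRDX1 in 3 and those of NQO1 in 1. The exons of NFE2L2 share 1054 bases with the same-strand row AC019080.1, which had 78.0 to 108 counts. They share 54 bases with AGPS on the opposite strand, which had 4964 to 5115 counts. PRDX1 shares 379 exonic bases with MMACHC on the opposite strand, which had 626 to 772 counts, and the split between them is uncertain, since no source used here states the strand setting. SRXN1 shares 2292 bases with the same-strand row AL121758.1, which was at 0 throughout. OSGIN1 shares 481 bases with the same-strand row AC009119.2, which had 0 to 5.89 counts.

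Differences between libraries were small for all 9 genes. The highest library exceeded the lowest by 1.10 times for PRDX1 to 1.28 times for KEAP1, with a median of 1.16. The median was 1.15 over the 9480 genes that averaged at least 10 CPM, a limit that OSGIN1 (5.76 CPM) did not meet. Against counting noise alone, 8 of the 9 genes varied (chi-square test of homogeneity, adjusted p under 0.05), where 59.2% of the 16790 genes tested did. That share was not matched for level, since the median was 144 CPM for the 9 genes and 15.2 CPM for all genes tested. It was 68.5% with the minimum mean count raised to 50. The exception among the 9 genes was OSGIN1 (chi-square test, adjusted p = 0.441), which also had the fewest counts. Among the others the adjusted p ran from 6.15e-123 for TXNRD1, the gene with the deepest counts, to 8.05e-05 for SRXN1. Without replicate 2 the call of NFE2L1 was lost (adjusted p = 0.169), and without replicate 4 those of SRXN1 and PRDX1 were lost (adjusted p = 0.112 and 0.254).

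Set against the spread that genes of like level had between these libraries, 0 of the 9 genes stood out. With edgeR's fitted trend of dispersion added to the counting noise, 0 of 9 passed, where 1.54% of the 16790 genes did. At an unadjusted p under 0.05 the count was also 0 of 9, where 6.77% of all genes passed, so the members' count is near the background. KEAP1 was nearest at p = 0.0686 (negative binomial chi-square test, not exact). The biological coefficient of variation is edgeR's estimate of the spread left after counting noise. The fit draws it toward the trend, so closeness to the trend is partly built in. It was 0.0873 for KEAP1 beside a trend of 0.0745 at its level. NQO1 (0.0779, trend 0.0733) and TXN (0.0773, trend 0.0755) also lay above their trend. The other 6 genes lay under theirs, from 0.0668 for SRXN1 to 0.1000 for OSGIN1.

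Replicate 4 was lowest for 7 of the 9 genes, all but NFE2L1 and OSGIN1, where it was lowest for 28.0% of the 16790 genes tested. The count was 7 under each of the other 3 scalings tried as well. The rest of the order differed between the genes, and which library was highest depended on the scaling. KEAP1, NQO1, TXN, TXNRD1 and PRDX1, 5 of the 9 genes, were highest in replicate 2 and lowest in replicate 4, where 15.5% of the 16790 genes were. Of the 87 tested genes in the 5 pathway lists described below, 32 were too. These were 13 of 23 thioredoxin genes, 4 of 7 other antioxidant enzymes and 9 of 35 other NRF2 targets. The rest were 5 of 16 turnover genes and 1 of 6 CNC-bZIP and small MAF genes. Neither the 28.0% nor the 15.5% was matched for level. With scaling by total counts 2 of the 9 genes had that pattern, where 9.33% of all did. The libraries also differed in makeup, since mitochondrial rows held 3.28% of counts in replicate 4 and 1.99% in replicate 2, and short structural RNAs held 8.11% and 10.7% there. The part of these differences in the low values of replicate 4 was not tested.

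**Figure D3:**
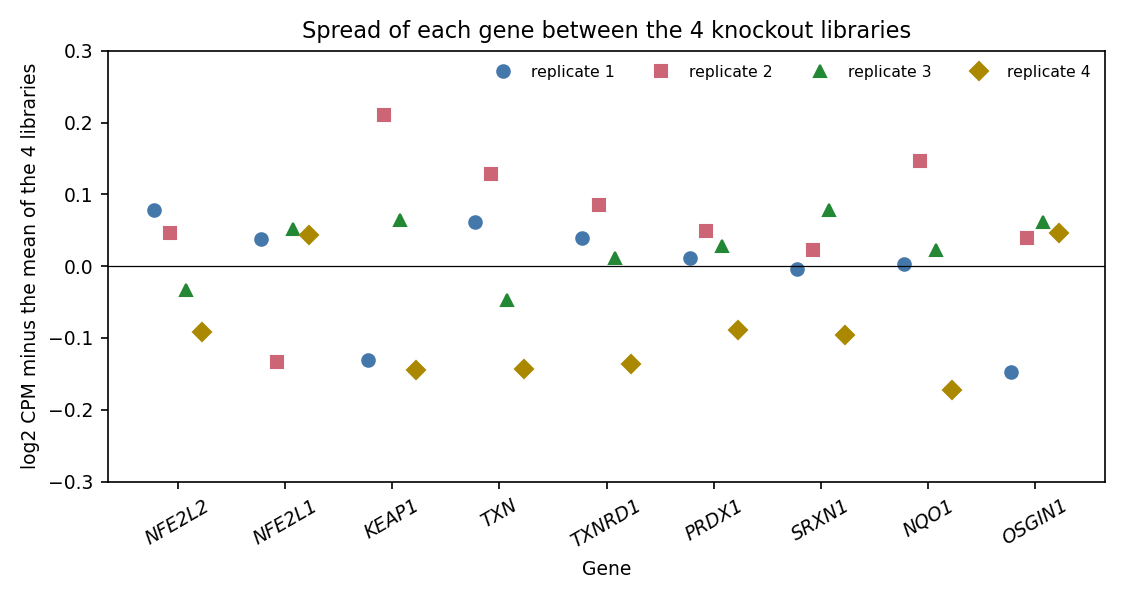
Log2 CPM of each gene in each of the 4 knockout libraries minus the gene's mean over them. The deviations stay between -0.17 and 0.21, replicate 4 (diamonds) is the lowest point for 7 of the 9 genes, and NFE2L1 is lowest in replicate 2 (squares).

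KEAP1 had the largest SD of log2 CPM of the 9 genes, 0.17. The genes whose library profile was nearest to it, by the root mean square difference of log2 deviations over the 4 libraries, were PMF1 (0.00282), YDJC (0.00556) and DPH2 (0.00564). In all, 706 of 9479 genes lay within 0.05 of it, so many genes share this profile over the 4 libraries. NQO1, at 0.0782, was the nearest of the 7 other antioxidant genes described here that averaged at least 10 CPM.

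The other genes of the pathway were taken from 5 lists of 92 genes, of which 85 were detected. Of the 87 tested, 68 (78.2%) varied beyond counting noise, beside 59.2% of all genes tested. Here and for each list below, the 59.2% was not matched for level. The median was 15.2 CPM over all genes tested, while the medians of the lists ran from 34.8 to 91.1 CPM. With the minimum mean count raised to 50, 68.5% of all genes varied, so these shares do not show that the pathway varied more than genes of like level. With the trended dispersion 2 of the 87 varied, PRDX5 and GPX1, beside 1.54% of all genes. Among the partners and competitors of NRF2, 5 of 7 were detected. NFE2L3, another NRF family member, stood at 23.7 ± 1.42 CPM per kilobase of exon, above NFE2L2. Per kilobase of the longest coding transcript it was below, at 27.3 for NFE2L3 and 34.3 for NFE2L2. BACH1, a repressor that competes with NRF2 for its sites, stood at 12.4 ± 0.741, while its paralog BACH2 was below the limit at 0.831 ± 0.167 CPM and the blood-cell factor NFE2 was at 0.0114 ± 0.0132 CPM. All 3 small MAF genes were present, with MAFG at 12.7 ± 0.328, MAFK at 8.34 ± 1.01 and MAFF at 5.37 ± 0.537 CPM per kilobase. MAFK was the most variable of the list and, with NFE2L3, BACH1 and MAFF, one of the 4 of 6 tested that varied (66.7%, beside 59.2% of all genes), of which 0 passed with the trended dispersion.

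All 16 genes of NRF2 and NRF1 turnover were detected, and 11 varied (68.8%, beside 59.2% of all genes), of which 0 passed with the trended dispersion. SQSTM1, the autophagy receptor p62 that can sequester KEAP1, was highest at 90.0 ± 7.30 CPM per kilobase, above NFE2L2 and KEAP1 themselves. VCP, the segregase that extracts NRF1 from the endoplasmic reticulum, had 67.6 ± 2.51 and GSK3B, a kinase that marks NRF2 for a second ligase, 24.0 ± 1.26 CPM per kilobase. The ligase adaptor BTRC was the most variable, at 4.38 ± 0.443 CPM per kilobase. CUL3 and RBX1, named after their values were seen, form the KEAP1 ligase and had 9.59 ± 0.627 and 13.9 ± 0.740 CPM per kilobase.

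In the thioredoxin list all 23 genes were detected and 18 varied (78.3%, beside 59.2% of all genes). The peroxiredoxins led it, with PRDX5 at 89.3 ± 17.5, PRDX6 at 75.2 ± 5.06 and the mitochondrial PRDX3 at 44.3 ± 3.21 CPM per kilobase, all below PRDX1. Their order rests on the length used. Per kilobase of the longest coding transcript PRDX6 had 101.7, PRDX3 95.1 and PRDX5 89.3 CPM. PRDX5 had 67.4, 100.2, 83.5 and 67.8 CPM and was the only gene of the list that varied beyond the dispersion trend (adjusted p = 0.0116). NXN, nucleoredoxin, had the largest SD of log2 CPM, counting noise included, at 2.77 ± 0.767 CPM. With the trended dispersion its unadjusted p was 0.0773 (negative binomial chi-square test). TXNIP, the inhibitor that binds reduced thioredoxin, was named after its values were seen. It had 65.3, 50.03, 59.98 and 60.4 CPM and was, unlike TXN, lowest in replicate 2.

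Of 38 other genes reported as NRF2 targets, 34 were detected and 29 of 35 tested varied (82.9%, beside 59.2% of all genes), of which 0 passed with the trended dispersion. The ferritin genes FTL and FTH1, which store iron, stood at 1227 ± 111 and 433 ± 43.0 CPM per kilobase, above all 9 genes described here. GSTP1, a glutathione transferase, had 80.8 ± 12.2 CPM per kilobase. AKR1C1 had the largest SD of log2 CPM of the detected genes, at 3.77 ± 0.909 CPM, and its near-identical paralogs make its split of reads uncertain. That SD includes counting noise. With the trended dispersion its unadjusted p was 0.071 (negative binomial chi-square test). By the same test HMOX1 and GSTP1 had lower unadjusted p, 0.00137 and 0.00637. The 4 genes not detected, AKR1B10, GPX2, GSTA4 and CYP4F11, were below 1 CPM in every library. Among well-known targets, named after their values were seen, HMOX1, the heme oxygenase, had 26.7, 37.2, 37.1 and 26.4 CPM, and SLC7A11, the cystine importer, stood at 255 ± 7.48 CPM. The glutathione synthesis genes GCLC and GCLM stood at 3.76 ± 0.174 and 13.3 ± 1.15 CPM per kilobase.

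Of 8 other antioxidant enzymes, 7 were detected and 6 of 7 tested varied (85.7%, beside 59.2% of all genes). GPX1, a selenium-dependent glutathione peroxidase, was highest at 160 ± 30.3 CPM per kilobase, close to PRDX1. It was also the most variable, with 198, 287, 233 and 194 CPM, and varied beyond the dispersion trend (adjusted p = 0.0244). PARK7 and GPX4 followed at 55.1 ± 6.12 and 45.9 ± 7.87 CPM per kilobase. The extracellular SOD3 was at 0.0415 ± 0.0489 CPM. The median SD of log2 CPM was 0.10 for the 9 genes described here and 0.09 for all genes that averaged at least 10 CPM. It was 0.16 for the detected enzymes of this list. For the detected genes of the other lists it was 0.09 (CNC-bZIP and small MAF), 0.07 (turnover), 0.14 (thioredoxin) and 0.12 (NRF2 targets). The 9 genes and the thioredoxin and NRF2 target lists include genes below 10 CPM, such as OSGIN1, NXN and AKR1C1. Their medians therefore do not share the limit used for all genes.

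**Figure D4:**
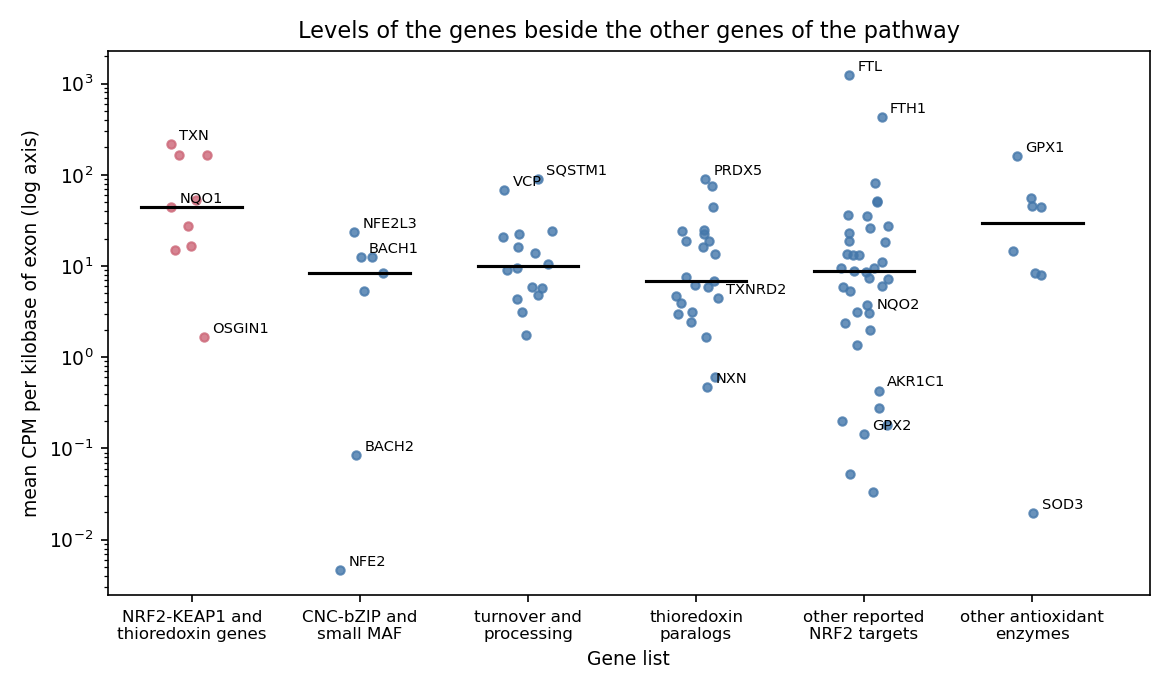
Mean level of each gene, as CPM per kilobase of exon on a log axis, for the 9 genes (red) and the 5 lists of other pathway genes (blue), with list medians as black lines. The 9 genes have a median of 44.2 CPM per kilobase, against 8.34, 10.0, 6.86, 8.73 and 29.4 for the lists from left to right.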

How the data were processed

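RNA-seq was made from 4 libraries labelled KDAC8 knockout, which form 1 group. RSEM 1.3.3, Bowtie2 2.5.4 and Trimmomatic 0.39 are named with build GRCh38, and DESeq2 1.46.0 is listed too, per the submitters' processing notes. No source used here gives their roles, the annotation release, the strand setting or filters. The authors deposited expected counts per gene, not scaled between libraries, as the values show (not whole in 10.6% to 11.9% of cells). RSEM shares reads among similar genes, so paralogs are uncertain.

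Counts were rounded for tests only. CPM were taken over TMM-scaled library sizes (edgeR 4.0.16), and exon lengths came from GENCODE release 29, which held 94.03% of the gene IDs. A gene was detected at 1 CPM in all libraries. Variation was tested over every row with a mean of 10 or more counts by chi-square homogeneity (Benjamini-Hochberg, threshold 0.05, 3 degrees of freedom), against counting noise and, as an alternative, with edgeR's trended dispersion. Ratios used an exact two-sided sign-flip permutation test. The chi-square test was tested on simulated data. Alternatives were other scalings (total counts, DESeq2 1.42.0 size factors, protein-coding rows), count minimums, transcript lengths and leaving out each library.

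The members and the 5 lists were chosen with earlier results of these data known. Named genes are the 9 members, HDAC8, all CNC-bZIP and small MAF genes, and genes that enter a ratio. Each list also gave its 3 highest genes per kilobase of exon and its most variable at 1 CPM, by SD of log2 CPM. Some of these ranks change with the length of the longest coding transcript. Genes in no list are those nearest to the most variable member, and rows that overlap a member or are its pseudogenes. Cell type markers are named too, and undetected list genes were named after their values were seen. Others are marked. In the lists, symbols of 92 of 92 genes matched a row.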

Additional observations from a re-analysis of the deposited data

Results flagged for a closer look

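In 2 of 24 sets of 4 values examined, 9 gene levels and 15 ratios, 1 library stood far from the other 3, and chance gives such a flag in about 1 of 20 sets. NFE2L1 was low in replicate 2, at 282 CPM, while the other 3 libraries had 317 to 320 CPM. OSGIN1 was low in replicate 1, at 5.19 CPM, while the other 3 had 5.91 to 6.00 CPM, and its variation did not pass the test against counting noise.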

How the results depend on the processing

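Adding the pseudogene rows left the levels of TXN and PRDX1 within 1 SD. The count of genes that varied was 8 of 9 under the other 3 scalings and the other 2 count minimums, and 6 to 8 with 1 library left out. With the trended dispersion as variance it was 0 of 9, and 258 genes in all passed, against 9944 for counting noise alone. Scaling on protein-coding rows shifted every gene up by 0.14 to 0.18 log2 units. It gave 109 CPM for NFE2L2, 346 for NFE2L1, 161 for NQO1, 278 for TXN, 1223 for TXNRD1, 83.1 for SRXN1, 282 for PRDX1 and 6.44 for OSGIN1, a change by construction, since those totals leave out structural RNAs. With the length of the longest protein-coding transcript, the PRDX1 to TXNRD1 log2 ratio was -0.32 and the SRXN1 to NFE2L2 ratio -0.32, both turned round. The other 13 ratios kept their direction there, and all 15 kept it with each library left out. The numbers of list genes detected were within 1.5 times at limits of 0.5 and 5 CPM. The dispersion of each gene under other scalings and with libraries left out was added after seeing the data and stayed within 1.5 times. With 4 libraries of 1 group, the sign-flip test cannot pass 0.05, and 210 to 272 counts limit the precision for OSGIN1. No paired analysis was possible because there is 1 group.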
